A study of Mus musculus with 10 samples.

Results

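The genes described here are Ch25h, which makes the oxysterol 25-hydroxycholesterol, the receptors and classical targets of the liver X receptor (LXR) pathway, and the apolipoprotein genes Apoe and Apod. A list of 10 genes was fixed by name: Ch25h, Abca1, Abcg1, Nr1h2, Nr1h3, Apoe, Apod, Lpl, Mylip and Lpcat3. The array annotation paired 9 of them with a probe set, 1 probe set each, out of 19176 named genes tested. Nr1h2, which encodes LXR beta, was not analysed here. All 9 passed the filter on low values.

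B16OVA is a mouse melanoma line that expresses the model antigen ovalbumin. In each mouse 500000 of these cells were placed under the skin, and the tumor was injected with BO-112 (5 mice) or with its vehicle, glucose at 5% (5 mice). BO-112 is Poly I:C, a synthetic double-stranded RNA, packed in particles with polyethylenimine. The mice were of the strain the labels call B6, females of 8 to 10 weeks per the study's methods, and tumors for RNA were taken 48 h after the second of 2 injections. Total RNA of the whole tumor was hybridized to 1 Clariom S Mouse array per mouse, so tumor cells, stroma and leukocytes were measured together. In such bulk samples fewer cells of a type and less RNA per cell cannot be told apart.

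LXR alpha (Nr1h3) and LXR beta are nuclear receptors that pair with retinoid X receptors and are switched on by oxysterols. Their targets move cholesterol out of the cell (Abca1, Abcg1), carry it in lipoproteins (Apoe), destroy the low-density lipoprotein receptor (Mylip, also called IDOL) and change the fatty acids of membrane phospholipids (Lpcat3). Ch25h is an interferon-stimulated gene of macrophages, and its product both binds LXR and holds back the SREBP factors that drive sterol synthesis. Apod encodes a lipocalin rather than a classical apolipoprotein and is made by fibroblasts and glia.

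Every value is a log2 expression value after Robust Multichip Average (RMA) normalization, and differences are BO-112 minus Vehicle. A level was judged against the 75th percentile of the negative control probe sets of the same array, which lay between 6.07 and 6.30. An adjusted p-value is that of limma with Benjamini-Hochberg adjustment over all 21792 tested probe sets, and a gene was called at 0.05. At this threshold 5.22% of all tested probe sets were called, 2.43% higher and 2.79% lower in BO-112 tumors. The 10 melanocyte markers all stood above the negative controls on most arrays, with a mean level between 11.9 and 12.1 in Vehicle and between 10.7 and 12.1 in BO-112 tumors. BO-112 mice 2 and 5 had the lowest array contrast, a measure from the control probe sets of how often positive outshine negative ones (0.845 and 0.855 against 0.867 to 0.891 in the others). The contrast ran from 0.845 to 0.883 in BO-112 and from 0.867 to 0.891 in Vehicle arrays. A fit that includes it therefore shares part of the group difference with it. BO-112 mouse 5 also had the lowest melanocyte level, at 1.28 below the Vehicle mean.

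Of the 9 measured genes 2, Ch25h and Apod, rose in BO-112 tumors and 0 fell, where 2.43% of all tested probe sets rose and 2.79% fell. On the scale of the group means Apod was 10.1-fold higher, and Ch25h was 3.16-fold higher against a Vehicle level that stood over the negative controls on 2 of 5 arrays. The groups did not overlap for Ch25h and Apod, both higher, and for Lpcat3, lower, while 8.69% of all tested probe sets did not overlap, 3.39% higher and 5.3% lower. At an unadjusted p under 0.05 there were 6 of 9, with 4 higher and 2 lower, against 25% of all tested probe sets (10.9% and 14.1%). By limma's B-statistic, the log odds that a gene differs, Ch25h (0.06) was above 0 and Apod (-0.11) was not, where 2.18% of all tested probe sets were above 0, 1.23% higher and 0.954% lower. The median log2 fold change of the 9 genes was 0.46, and that of all tested probe sets was 0.01. The list was drawn up with earlier results of these data known, so these shares describe the list and do not test it.

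**Figure D1:**
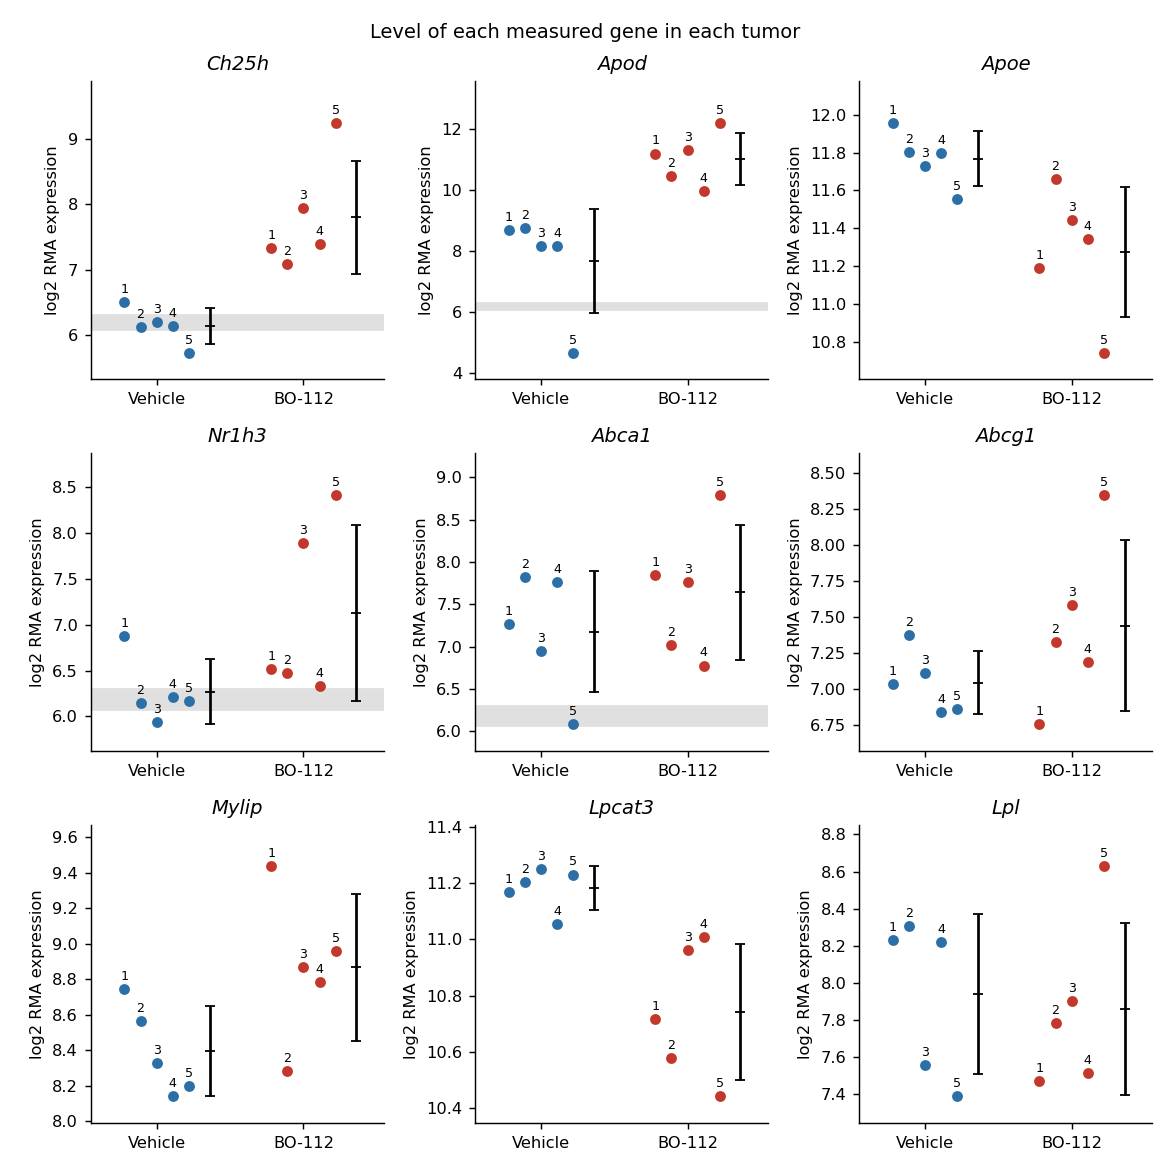
Log2 RMA expression of the 9 measured genes in each tumor, with mouse numbers over the points, and mean ± SD (n = 5) beside each group. The grey band spans the negative control levels of the 10 arrays (6.07 to 6.30). Ch25h and Apod are higher in all 5 BO-112 tumors than in any Vehicle tumor, and Lpcat3 is lower in all 5.

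Ch25h encodes cholesterol 25-hydroxylase. It stood at 7.33, 7.09, 7.94, 7.39 and 9.25 in BO-112 mice 1 to 5 and at 6.50, 6.13, 6.20, 6.14 and 5.73 in Vehicle mice 1 to 5. BO-112 mouse 5 was the highest, and the lowest BO-112 tumor was above the highest Vehicle tumor. The means were 7.80 ± 0.87 (SD, n = 5) and 6.14 ± 0.28 (SD, n = 5), a log2 fold change of 1.66 (SE 0.35, 95% confidence interval 0.90 to 2.43, limma adjusted p = 0.0246). All 5 BO-112 arrays but 2 of 5 Vehicle arrays showed Ch25h over the negative controls, and the rise is therefore measured against values near background. Without BO-112 mouse 5 the log2 fold change was 1.30 (limma adjusted p = 0.00661). The call was lost without Vehicle mouse 2, 3, 4 or 5 (limma adjusted p = 0.0632, 0.0612, 0.0631 and 0.0684), with log2 fold changes of 1.66, 1.68, 1.66 and 1.56. It was also lost once the array contrast entered the fit (1.40, limma adjusted p = 0.315). That fit called 27 probe sets in all, against 1138 without the contrast.

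The promoter of Ch25h, the called gene of this pathway that makes an LXR ligand, is shown with that of Abca1, the cholesterol exporter in which a site for LXR could be sought. Both come from the RefSeq table of GRCm38.p6, 250 bases before to 50 bases after the start, where 8 of the 10 listed genes had an entry. Capitals mark TGACGTCA, the cAMP response element, in Ch25h (chr19:34475099-34475398, minus strand) and the match to the direct repeat bound by LXR (AGGTCA, any 4 bases, AGGTCA) in Abca1 (chr4:53159846-53160145, minus strand).
Ch25h: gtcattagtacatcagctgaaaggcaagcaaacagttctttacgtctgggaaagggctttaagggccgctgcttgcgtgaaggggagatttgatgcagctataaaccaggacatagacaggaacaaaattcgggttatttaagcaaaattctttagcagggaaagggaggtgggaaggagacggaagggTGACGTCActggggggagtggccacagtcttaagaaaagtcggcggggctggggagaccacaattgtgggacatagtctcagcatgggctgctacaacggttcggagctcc
Abca1: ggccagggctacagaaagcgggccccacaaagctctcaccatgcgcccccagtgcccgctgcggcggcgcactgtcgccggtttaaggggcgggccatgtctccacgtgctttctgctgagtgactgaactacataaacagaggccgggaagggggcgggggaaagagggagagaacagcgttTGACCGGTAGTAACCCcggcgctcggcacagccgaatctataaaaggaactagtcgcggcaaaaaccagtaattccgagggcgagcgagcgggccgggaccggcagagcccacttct

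The cAMP response element of Ch25h lay at -61 to -54 from the start, and 1.79% of the 32851 promoters in the table held one on either strand. It was searched for after the Ch25h sequence had been seen. The direct repeat of Abca1 lay at -67 to -52 on the opposite strand with 3 mismatches. With up to 3 mismatches 21.9% of all promoters held such a repeat, and with 0 mismatches 0.0152% did, so this match is common by itself. Among the 11 promoters of the listed genes, 1 held it with up to 3 mismatches. Other motifs were searched on both strands as exact letters. The core of the interferon-stimulated response element (GAAA, any 2 bases, GAAA), the core of the gamma-interferon activated site (TTC, any 3 bases, GAA) and an NF-kB site (GGGA, any base, TTTCC) were in 0 of these 11 windows and in 3.44%, 8.3% and 0.411% of all promoters. The letters of a TATA box (TATAAA) were in 4 of the 11, in Ch25h, Abca1, Apoe and Mylip, and in 13.6% of all promoters.

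The receptor gene Nr1h3 was at 6.52, 6.48, 7.90, 6.33 and 8.42 in BO-112 mice 1 to 5 and at 6.87, 6.15, 5.94, 6.21 and 6.16 in Vehicle mice 1 to 5. BO-112 mice 3 and 5 stood above all Vehicle tumors and the others lay within the Vehicle range. The log2 fold change was 0.86 (SE 0.39, 95% confidence interval 0.01 to 1.72, limma adjusted p = 0.197), so no difference was called. Nr1h3 exceeded the negative controls on 3 of 5 Vehicle and 5 of 5 BO-112 arrays.

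The cholesterol exporters were not called. Abca1, which loads cholesterol onto apolipoprotein A-I, was at 7.85, 7.02, 7.77, 6.78 and 8.80 in BO-112 mice 1 to 5 and at 7.27, 7.83, 6.95, 7.77 and 6.08 in Vehicle mice 1 to 5. The groups overlapped, with BO-112 mouse 5 the highest and Vehicle mouse 5 the lowest of all arrays (log2 fold change 0.46, 95% confidence interval -0.42 to 1.35, limma adjusted p = 0.504). Abcg1, which moves cholesterol to mature high-density lipoprotein, was at 6.75, 7.33, 7.59, 7.19 and 8.35 in BO-112 and at 7.03, 7.37, 7.11, 6.84 and 6.86 in Vehicle mice 1 to 5. Here too BO-112 mouse 5 was the highest, while BO-112 mouse 1 was the lowest of all arrays (log2 fold change 0.40, 95% confidence interval -0.14 to 0.94, limma adjusted p = 0.341). Both intervals cross 0 and reach well above it, so neither a rise nor its absence was shown for the exporters.

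Mylip, the ubiquitin ligase that removes the low-density lipoprotein receptor, was at 9.43, 8.28, 8.87, 8.79 and 8.96 in BO-112 and at 8.74, 8.56, 8.33, 8.14 and 8.20 in Vehicle mice 1 to 5. In 4 of 5 BO-112 tumors it was above every Vehicle tumor, and BO-112 mouse 2 lay inside the Vehicle range (log2 fold change 0.47, 95% confidence interval 0.04 to 0.90, limma adjusted p = 0.165). Lpcat3, the LXR-regulated acyltransferase of phospholipids, was at 10.72, 10.58, 10.96, 11.01 and 10.44 in BO-112 and at 11.17, 11.20, 11.25, 11.05 and 11.23 in Vehicle mice 1 to 5. All 5 BO-112 values were under the lowest Vehicle value, and the Vehicle tumors lay close together (SD 0.08 against 0.24). The log2 fold change of Lpcat3 was -0.44 (SE 0.12, 95% confidence interval -0.71 to -0.17, limma adjusted p = 0.0603), which missed the threshold. It passed without BO-112 mouse 4 (-0.51, limma adjusted p = 0.0238), with each array centred on its median (-0.53, limma adjusted p = 0.0472) and among probe sets with a mean above 6 (limma adjusted p = 0.0497). The difference was smaller without BO-112 mice 2 and 5 (-0.29, limma adjusted p = 0.158) and once the array contrast entered the fit (-0.25, limma adjusted p = 0.671).

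Apoe, the ligand that brings lipoproteins to their receptors, was at 11.19, 11.66, 11.44, 11.34 and 10.74 in BO-112 and at 11.96, 11.80, 11.73, 11.80 and 11.56 in Vehicle mice 1 to 5. BO-112 mouse 2 alone reached into the Vehicle range, and 4 of 5 BO-112 tumors were under all Vehicle tumors. The means were 11.27 ± 0.34 (SD, n = 5) and 11.77 ± 0.15 (SD, n = 5), a log2 fold change of -0.49 (SE 0.16, 95% confidence interval -0.84 to -0.15, limma adjusted p = 0.0887). Apoe therefore missed the threshold. Of 19 alternatives it passed in 1, the array weights (-0.45, limma adjusted p = 0.0315), and it passed in 0 of 10 fits that left out 1 mouse. Apoe was at -0.36 without BO-112 mouse 5 (limma adjusted p = 0.120) and at -0.40 with quantile scaling (limma adjusted p = 0.151). With array contrast in the fit it was at -0.57 (limma adjusted p = 0.423). Lpl, the lipoprotein lipase that frees fatty acids from circulating lipoproteins, was at 7.47, 7.78, 7.90, 7.52 and 8.63 in BO-112 and at 8.23, 8.31, 7.56, 8.22 and 7.39 in Vehicle mice 1 to 5. BO-112 mouse 5 was again the highest and Vehicle mouse 5 the lowest, and the groups overlapped (log2 fold change -0.08, 95% confidence interval -0.63 to 0.47, limma adjusted p = 0.867).

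Apod had the largest difference of the 9 genes. It was at 11.19, 10.46, 11.29, 9.97 and 12.20 in BO-112 mice 1 to 5 and at 8.68, 8.76, 8.15, 8.16 and 4.67 in Vehicle mice 1 to 5. Vehicle mouse 5 lay under the negative controls, the other Vehicle tumors lay close to each other, and every BO-112 tumor was above every Vehicle tumor. The means were 11.02 ± 0.85 (SD, n = 5) and 7.68 ± 1.71 (SD, n = 5), a log2 fold change of 3.34 (SE 0.72, 95% confidence interval 1.77 to 4.91, limma adjusted p = 0.0267). Without Vehicle mouse 5 the log2 fold change was 2.59 (limma adjusted p = 0.0144), so part of the size, but not the call, came from this tumor. The call was lost without BO-112 mouse 1 or 3 or Vehicle mouse 3 or 4 (limma adjusted p = 0.0624, 0.0515, 0.0585 and 0.0579), with log2 fold changes of 3.30, 3.27, 3.45 and 3.46. It was also lost without BO-112 mice 2 and 5 together (3.14, limma adjusted p = 0.0659) and once the array contrast entered the fit (2.55, limma adjusted p = 0.385). The fit with the contrast called 27 probe sets in all, against 1138 without it.

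**Figure D2:**
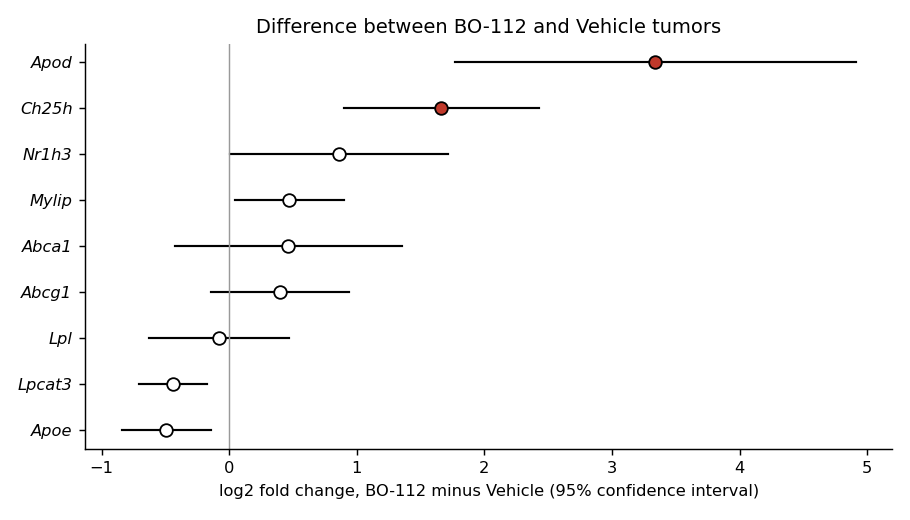
Log2 fold change (BO-112 minus Vehicle, n = 5 each) of the 9 measured genes with the 95% confidence interval from limma. Filled points are genes at an adjusted p under 0.05. Only Apod (3.34) and Ch25h (1.66) are filled, and the intervals of Abca1, Abcg1 and Lpl cross 0.

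Differences between pairs of these genes were then compared within each mouse, which cancels what a tumor's array shares between both probe sets. Of 4 planned pairs 3 could be tested, each by exact permutation over 252 arrangements (two-sided), whose smallest possible p is 0.00794. The difference Apod minus Apoe was higher in BO-112 tumors by 3.83 on the log2 scale, with Apod at 3.34 and Apoe at -0.49. In 5 of 5 BO-112 tumors it was above every Vehicle tumor (exact permutation p = 0.00794, adjusted over 3 tests 0.0119). Apod alone already separated the groups, so this pair says little beyond Apod. Ch25h minus Cyp7b1, whose enzyme takes 25-hydroxycholesterol further, was higher by 1.68, with Cyp7b1 itself at -0.02. In this pair also 5 of 5 BO-112 tumors were above all Vehicle tumors (exact permutation p = 0.00794, adjusted 0.0119). Cyp7b1 exceeded the negative controls on 0 of 10 arrays, so the pair says little beyond Ch25h. Abca1 and Abcg1 differed in response by 0.07 (exact permutation p = 0.905, adjusted 0.905), where the spread of the difference between tumors was 0.61 in BO-112 and 0.64 in Vehicle (SD, n = 5 each).

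The genes varied between tumors of one group, and 22 of 36 pairs of them had a positive correlation, or 30 of 36 without BO-112 mouse 5. BO-112 mouse 5 was the highest of all 10 arrays for 6 of 9 genes, namely Ch25h, Abca1, Abcg1, Nr1h3, Apod and Lpl, and the lowest for Apoe and Lpcat3. The SD was larger in BO-112 than in Vehicle tumors for 8 of 9 genes, with Apod as the exception. Deviations from the group means, taken over the 10 arrays, gave Pearson correlations between -0.63 and 0.88 over these pairs (median 0.33). The highest were those of Ch25h with Nr1h3 (0.88), Abca1 with Apod (0.85) and Abca1 with Lpl (0.84). Without BO-112 mouse 5 these were 0.79, 0.86 and 0.73, and Ch25h with Abcg1 went from 0.83 to 0.43. The pair Ch25h and Apoe changed sign, from -0.63 to 0.29. All of these are descriptions over 10 arrays that share a tumor mixture and an array contrast, and no test was run on them.

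**Figure D3:**
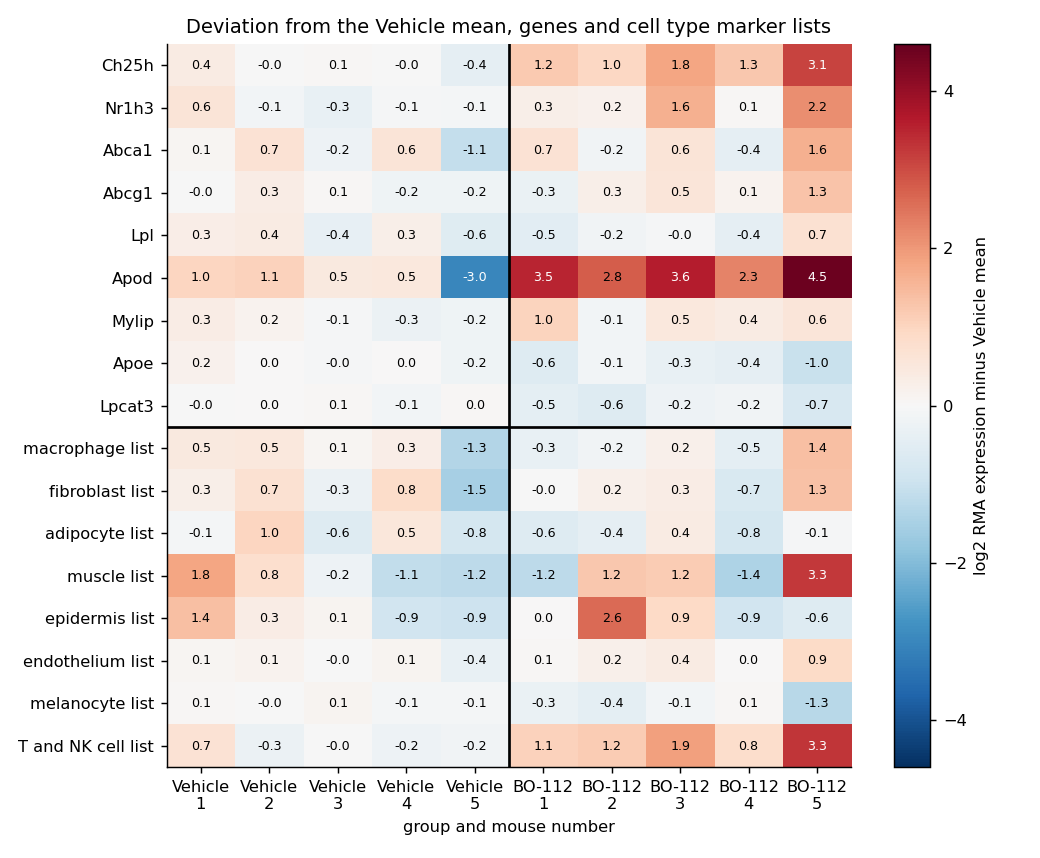
Deviation from the Vehicle mean (log2 RMA expression) of the 9 measured genes, above the line, and of the mean of 8 cell type marker lists, below it, in each of the 10 tumors. In BO-112 mouse 5 Apod is at 4.5, Ch25h at 3.1, the muscle and the T and NK cell lists at 3.3 and the melanocyte list at -1.3. In Vehicle mouse 5 Apod is at -3.0, the macrophage list at -1.3 and the fibroblast list at -1.5.

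Marker lists of other cell types moved with several of these genes. The 9 measured T and NK cell markers, 3 of them above the negative controls on most arrays, had a mean level between 6.29 and 8.75 in BO-112 and between 5.21 and 6.13 in Vehicle tumors. Of these markers 4 rose and 0 fell, where 2.43% of all tested probe sets rose and 2.79% fell. Within groups this list went with Ch25h (Pearson r of the deviations 0.94, Spearman rho 0.85, n = 10) and with Nr1h3 (r 0.93, rho 0.89), and without both mice numbered 5 the r was 0.81 and 0.91. It also went with Abcg1 (r 0.81, rho 0.71) and Lpl (r 0.72, rho 0.47), and without those mice at r 0.36 and 0.34. The macrophage and monocyte list, with 13 of 14 measured markers above the negative controls on most arrays, had a mean level between 7.19 and 9.01 in BO-112 and between 6.31 and 8.12 in Vehicle tumors. In that list Ly6c2, a monocyte marker, rose and Mrc1, the mannose receptor, fell. The list went with Apod (r 0.91, rho 0.98), Lpl (r 0.91, rho 0.94), Abca1 (r 0.88, rho 0.83) and Ch25h (r 0.83, rho 0.73), and without both mice numbered 5 the r was 0.70, 0.80, 0.55 and 0.64. Abcg1 (r 0.74, rho 0.75) and Nr1h3 (r 0.68, rho 0.66) went with this list as well, and without those mice at r 0.62 and 0.88. The part of these lists in the differences of Ch25h, Nr1h3 and Apod was not tested.

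Fibroblast markers (8 of 11 above the negative controls on most arrays) had a mean level between 7.17 and 9.22 in BO-112 and between 6.34 and 8.71 in Vehicle tumors, with 0 called. They went with Abca1 (r 0.92, rho 0.84), Lpl (r 0.91, rho 0.93) and Apod (r 0.89, rho 0.90), and without both mice numbered 5 the r was 0.77, 0.81 and 0.54. Vehicle mouse 5, where Apod was lowest, also had the lowest fibroblast and macrophage levels. Of the 10 melanocyte markers 0 rose and 1 fell, Oca2 (log2 fold change -1.18, limma adjusted p = 0.0444), where 2.43% of all tested probe sets rose and 2.79% fell. The mean of the list differed by -0.42, BO-112 minus Vehicle. The melanocyte list went with Lpcat3 (r 0.86, rho 0.71), also without both mice numbered 5 (r 0.94), and with Apoe (r 0.69, rho 0.43), where the r was -0.35 without those mice. It ran against Ch25h (r -0.72, rho -0.10), Abcg1 (r -0.69, rho -0.31), Lpl (r -0.65, rho -0.31), Nr1h3 (r -0.62, rho -0.43) and Abca1 (r -0.58, rho -0.26). Without those mice the r was 0.48, 0.18, -0.35, 0.09 and -0.40. Adipocyte markers, relevant to Lpl, had a mean level between 5.48 and 6.66 in BO-112 and between 5.49 and 7.30 in Vehicle tumors. Of these markers 2 of 9 were above the negative controls on most arrays. The list went with Lpl at r 0.74 (rho 0.82) and with Abca1 at r 0.73 (rho 0.77). Muscle, epidermis and endothelium lists had 0 genes called. Endothelial markers (6 of 8 above the negative controls on most arrays) had a mean level between 6.91 and 7.78 in BO-112 and between 6.54 and 7.04 in Vehicle tumors. They went with Lpl (r 0.93, rho 0.93), Ch25h (r 0.89, rho 0.70), Abca1 (r 0.86, rho 0.87) and Abcg1 (r 0.85, rho 0.71). Without both mice numbered 5 the r was 0.78, 0.43, 0.50 and 0.64. Nr1h3 (r 0.78, rho 0.65) and Apod (r 0.76, rho 0.96) went with them as well, and without those mice at r 0.73 and 0.51. The epidermis list, between 5.56 and 9.05 in BO-112 and between 5.48 and 7.82 in Vehicle tumors, went with Apoe (r 0.73, rho 0.71), also without both mice numbered 5 (r 0.81). Without those mice the muscle list went with Apoe too (r 0.78), against r -0.13 over all arrays. Mylip went with none of the lists, its r lying between -0.17 and 0.24. The muscle list spanned 5.84 to 10.5 in BO-112 and 6.03 to 9.06 in Vehicle tumors. It went with Abcg1 (r 0.82, rho 0.84), Lpl (r 0.79, rho 0.81), Nr1h3 (r 0.78, rho 0.61) and Ch25h (r 0.74, rho 0.60). Without both mice numbered 5 the r was 0.65, 0.54, 0.62 and 0.37. Whether these lists account for any difference named above was not tested.

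For each of the 9 genes, the 3 genes of most similar deviations were taken from 19175 others, with r over 10 arrays given as a description. Ch25h was most like Ly9 (0.99), Gstt2 (0.99) and Lcp1 (0.99), of which Ly9 encodes a lymphocyte surface receptor and Lcp1 the leukocyte plastin. Nr1h3 was most like Ikzf3 (0.99), Resf1 (0.98) and Meox2 (0.98). Abca1 was most like Plat (0.98), Pxdn (0.98) and Mmp2 (0.98), which encode tissue plasminogen activator, a matrix peroxidase and a matrix metalloproteinase. Abcg1 was most like Slc22a4 (0.98), Maf (0.97) and Id3 (0.96). Apod was most like Itgam (0.99), Ifi204 (0.97) and Bgn (0.96), of which Itgam encodes the integrin CD11b and Bgn the matrix proteoglycan biglycan. Without Vehicle mouse 5 the likeness of Apod to Ifi204 fell to 0.85 and that to Itgam was 0.96. Lpl was most like Ankle1 (0.97), Igfbp7 (0.96) and Dapk1 (0.96), and Mylip was most like Adh1 (0.96), Rpl38 (0.94) and Rara (0.93). Lpcat3 was most like Tmx3 (0.99), Tdp1 (0.98) and Nono (0.98), and Apoe was most like H4c2 (0.94), Alad (0.94) and Slc4a8 (0.94). Without BO-112 mouse 5 the likeness of Apoe to Slc4a8 was 0.83.

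The rest of the pathway was read from 8 lists fixed by name, of which 84 of 102 genes were measured. Together 5 rose and 5 fell, with a median log2 fold change of -0.06 against 0.01 over all tested probe sets. The share called in each direction, here and in each list below, can be read against 2.43% and 2.79% of all tested probe sets. At an unadjusted p under 0.05 there were 17 higher and 22 lower, where 10.9% and 14.1% of all tested probe sets were. Leaving out BO-112 mouse 1, 2, 3, 4 or 5 in turn gave 0, 0, 1, 7 and 2 higher and 2, 3, 6, 14 and 8 lower. Leaving out Vehicle mouse 1, 2, 3, 4 or 5 gave 1, 0, 0, 1 and 0 higher and 4, 2, 2, 2 and 2 lower. Once the array contrast entered the fit, 0 rose and 0 fell.

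**Figure D4:**
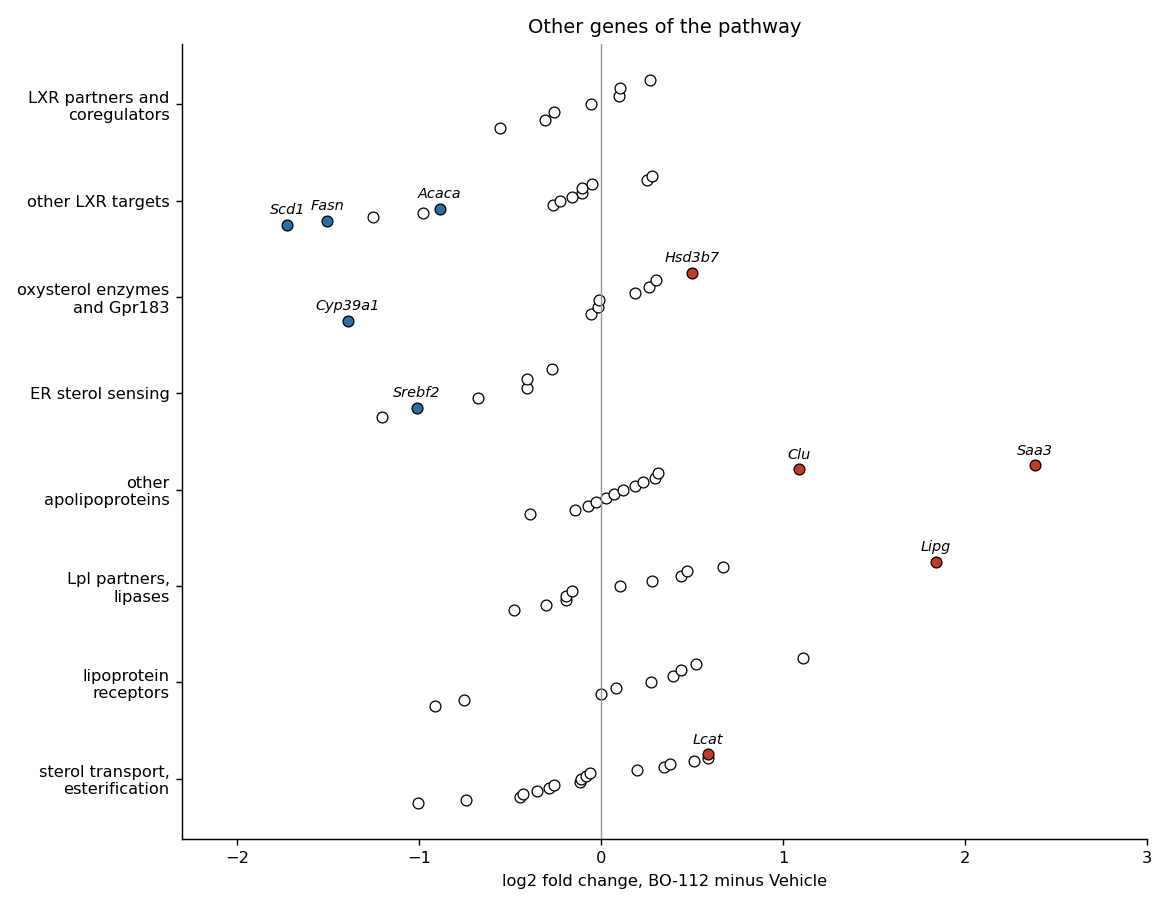
Log2 fold change (BO-112 minus Vehicle) of the 84 measured genes of 8 pathway lists, 1 point per gene. Filled points are genes at an adjusted p under 0.05, red higher and blue lower. Scd1 (-1.72), Fasn (-1.50) and Cyp39a1 (-1.39) lie farthest to the left and Saa3 (2.38) and Lipg (1.84) farthest to the right.

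Among 13 measured other LXR targets 3 fell and 0 rose, all of them genes of fatty acid synthesis, which LXR reaches largely through SREBP-1c. Of all tested probe sets 2.79% fell and 2.43% rose. Scd1, the stearoyl desaturase, went from 11.38 ± 0.35 in Vehicle to 9.66 ± 0.71 in BO-112 tumors (SD, n = 5 each), a fall of 3.30-fold (log2 fold change -1.72, limma adjusted p = 0.0127). Fasn, the fatty acid synthase, differed by -1.50 on the log2 scale (limma adjusted p = 0.0116) and Acaca, acetyl-CoA carboxylase, by -0.89 (limma adjusted p = 0.0444). Scd1 and Fasn passed in 10 of 10 fits that left out 1 mouse and Acaca in 3. The LXR partners and coregulators had 0 of 7 called and 2 at an unadjusted p under 0.05, against 25% of all tested probe sets. These were Rxra, the main partner of LXR, at -0.55 (limma adjusted p = 0.0981) and Ncoa3 at 0.27 (limma adjusted p = 0.182).

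Among 8 measured oxysterol genes 1 rose and 1 fell. Hsd3b7, an enzyme that acts on oxysterols after Cyp7b1, rose by 0.50 (SE 0.13, limma adjusted p = 0.0484), with values of 7.13 to 7.36 in BO-112 and 6.44 to 7.15 in Vehicle tumors, which overlap. Cyp39a1, another oxysterol hydroxylase, fell by 1.39 (SE 0.33, limma adjusted p = 0.0361). Gpr183, the receptor through which oxysterols made from 25-hydroxycholesterol guide lymphocytes and dendritic cells, was at 0.19 (limma adjusted p = 0.682) and exceeded the negative controls on 1 of 10 arrays. Hsd3b7 passed in 2 and Cyp39a1 in 3 of 10 fits that left out 1 mouse. Among 6 measured genes of sterol sensing in the endoplasmic reticulum 1 fell and 0 rose, and 5 had a negative change at an unadjusted p under 0.05, as did 14.1% of all tested probe sets. Srebf2, the master factor of cholesterol synthesis, fell by 1.01 (SE 0.22, limma adjusted p = 0.0272) and passed in 5 of 10 fits that left out 1 mouse. Insig1, which retains the SREBP factors and is itself their target, was at -1.20 (limma adjusted p = 0.0769).

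Among 13 measured other apolipoproteins 2 rose and 0 fell, where 2.43% of all tested probe sets rose and 2.79% fell. Saa3, an acute-phase apolipoprotein of high-density lipoprotein, was at 10.31 ± 1.26 in BO-112 and 7.93 ± 0.65 in Vehicle tumors (SD, n = 5 each), 5.22-fold higher (log2 fold change 2.38, limma adjusted p = 0.0312). BO-112 mouse 4, at 8.60, lay below the highest Vehicle tumor, at 8.81. Clu, which encodes clusterin or apolipoprotein J, rose by 1.09 (SE 0.28, limma adjusted p = 0.0477), from 8.07 ± 0.21 to 9.16 ± 0.69 (SD, n = 5 each). Saa3 passed in 3 and Clu in 1 of 10 fits that left out 1 mouse. For Saa3, Clu and Lipg, as for Apod and Ch25h, BO-112 mouse 5 was the highest array.

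Among 11 measured Lpl partners and lipases 1 rose, Lipg, the endothelial lipase that acts on high-density lipoprotein, from 5.85 ± 0.30 to 7.69 ± 1.05 (SD, n = 5 each), 3.58-fold higher (log2 fold change 1.84, limma adjusted p = 0.0322). In Vehicle tumors 1 of 5 arrays showed Lipg over the negative controls, which leaves its size uncertain, and it passed in 2 of 10 fits that left out 1 mouse. Angptl4, an inhibitor of Lpl, was at 0.67 (limma adjusted p = 0.069) and Gpihbp1, which anchors Lpl to capillaries, at 0.47 (limma adjusted p = 0.15). Of 9 measured lipoprotein receptors 0 were called. At an unadjusted p under 0.05 there were 2 higher and 2 lower, against 10.9% and 14.1% of all tested probe sets. Scarb1, the receptor of high-density lipoprotein, was at -0.75 (limma adjusted p = 0.0638) and Lrp8, a receptor of apolipoprotein E, at -0.91 (limma adjusted p = 0.0916). In neither did the groups overlap, as in 5.3% of all tested probe sets on the lower side. For Lrp8 the highest BO-112 tumor was at 7.94 and the lowest Vehicle tumor at 7.96. Of 17 measured genes of sterol transport and esterification 1 rose, Lcat, the cholesterol acyltransferase of plasma, by 0.59 (limma adjusted p = 0.0449), but it exceeded the negative controls on 1 of 10 arrays and passed in 2 of 10 fits that left out 1 mouse.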

How the data were processed

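Total RNA of 10 tumors was measured on Clariom S Mouse arrays. Per the labels and the study's methods, the authors applied RMA, which is meant to equalize arrays and draws dim probe sets toward a floor. They deposited 1 log2 expression value per probe set and mouse. The deposited arrays still differed, with medians from 6.25 to 6.43. The interquartile range was 2.80 and 2.85 in BO-112 mice 2 and 5 and 3.13 to 3.42 in the others. Software version and genome build: not given in the sources used here. Sample titles gave the group and the mouse. Every array was used, with 0 sample columns left unused, and their number limits the precision.

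Of 29129 probe sets, 6923 were controls, and 21792 of the other 22206 passed the study's filter, a value over 4 in 3 or more samples of a group. The platform annotation named 1 gene for 19239 of those tested, several for 0 and none for 2553. The probe set of highest mean stood for a gene. Differences were tested two-sided with limma (version 3.58.1, R 4.3.3; lmFit, then eBayes) without covariates, a step that was tested on simulated data. Python 3.11.15 ran the exact permutation tests and correlations.

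The genes, lists and alternatives were chosen with earlier results of these data known. Named genes were the members, up to 4 called genes of largest change per pathway list (or the 2 of lowest p), 7 measured genes of a fixed set of 10, the 3 genes most like each member, and the marker genes of largest change. Alternatives concerned the filter (none, or a mean above 6), scaling (median centring or quantile), the variance model (a trend with robust fitting), weights per array, a replicate block of mouse numbers, each mouse left out, BO-112 mice 2 and 5 left out, array contrast as a covariate, and calling at a B-statistic above 0. The planned pair of Nr1h3 and Nr1h2 was not tested.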

Additional observations from a re-analysis of the deposited data

Results flagged for a closer look

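In 4 of 56 groups of 5 arrays 1 sample stood far from the others by Dixon's criterion, which chance alone meets in about 1 group in 20. Apod was 4.67 in Vehicle mouse 5, with the nearest Vehicle tumor at 8.15. Fasn was 7.24 in BO-112 mouse 5, with the nearest BO-112 tumor at 8.57. Gpr183 was 5.46 in Vehicle mouse 5, with the nearest Vehicle tumor at 5.92, and stood under the negative controls there. Scarb1 was 9.44 in Vehicle mouse 4, with the nearest Vehicle tumor at 9.74.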

How the results depend on the processing

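Of the 2 measured genes that rose with all arrays, 1 rose at a B-statistic above 0 (Ch25h), 1 without BO-112 mice 2 and 5, and 0 with array contrast in the fit. Of the other measured genes 1 fell with array weights (Apoe), and 1 with median centring and with a mean above 6 (Lpcat3 in both). Leaving out 1 mouse at a time gave 0 to 2 higher and 0 to 1 lower. All probe sets called numbered 1138, and 475 at a B-statistic above 0, 1726 with array weights, 27 with the array contrast and 347 to 3135 without 1 mouse. With median centring 436 were higher and 855 lower, against 529 and 609. Pathway genes called, 5 higher and 5 lower, became 0 and 2 at a B-statistic above 0 and 0 and 0 with the array contrast. They were 0 higher without BO-112 mice 2 and 5, 3 higher with median centring, 9 lower with a mean above 6, 10 lower with array weights, and 0 to 7 higher and 2 to 14 lower without 1 mouse. Apod minus Apoe stayed between 3.13 and 4.11, Ch25h minus Cyp7b1 between 1.43 and 1.97, and Abca1 minus Abcg1 between -0.16 and 0.27 without 1 mouse, the last being -0.16 without BO-112 mouse 1, -0.01 without Vehicle mouse 3 and -0.16 without Vehicle mouse 5.

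With the mouse number as a replicate block 102 probe sets, 0 of the measured genes, and 0 higher and 1 lower of the pathway genes were called. Paired by number, Apod minus Apoe (3.83) and Ch25h minus Cyp7b1 (1.68) each had an exact permutation p = 0.0625, the smallest that 5 pairs allow. The deviations of equally numbered mice correlated at -0.31, -0.09, 0.39, -0.21 and -0.26. Only BO-112 mouse 3 was most like the Vehicle mouse of its own number. Whether the numbers mark pairs cannot be decided from these values.

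Not called in any fit, 3 genes changed sign. Leaving out 1 mouse at a time took Lpl from -0.27 (without BO-112 mouse 5) to 0.017 (without BO-112 mouse 1), Cyp7b1 from -0.13 (without BO-112 mouse 5) to 0.098 (without BO-112 mouse 4) and Gpr183 from -0.055 (without BO-112 mouse 5) to 0.35 (without BO-112 mouse 4). Gpr183 was also at -0.052 with array weights, -0.16 without BO-112 mice 2 and 5 and -0.24 with array contrast in the fit. The causes were not tested. Values near the negative controls (Ch25h and Nr1h3 in Vehicle tumors, Cyp7b1, Gpr183 and Lcat throughout) limit what these arrays can show.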
